A study of Mus musculus with 11 samples.

Results

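Transcripts of 40 named cell cycle and proliferation genes were followed in RNA sequencing of sorted mouse microglia. They were chosen by name as a module, from D cyclins to markers of mitosis, and each matched 1 of the 55401 rows of the deposited gene count table. All 40 passed the filter on low counts, which kept 20390 genes. The study varied Tyrobp and Inpp5d in mice of the NLGF line, whose App knock-in alleles give amyloid plaques. All mice were C57BL/6, were 9 to 10 months old and carried NLGF, so no mouse without amyloid was included. The groups were Tyrobp-/-;NLGF (2 libraries, here the Tyrobp single mutant), Tyrobp-/-;Inpp5d+/-;NLGF (3 libraries, here the compound mutant), Inpp5d+/-;NLGF (3 libraries) and NLGF (3 libraries). Microglia were taken from brain tissue as living cells positive for CD11b and CD45, a gate that other myeloid cells also meet. The labels do not say whether a library is 1 animal or a pool, nor how the alleles were made, and the p values here reflect only library-to-library spread, which may be technical.

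Cells enter the cycle when D cyclins with CDK4 or CDK6, then cyclin E with CDK2, inactivate the retinoblastoma protein and free E2F factors, which switch on genes for DNA replication. The MCM helicase is loaded on DNA in G1 and unwinds it in S phase, and cyclin B with CDK1 drives mitosis. Microglia are long-lived brain macrophages that renew themselves slowly and divide more around amyloid plaques. Tyrobp encodes DAP12, the adaptor through which the receptor TREM2 signals, and Inpp5d encodes the phosphatase SHIP1, which acts against PI3-kinase signalling. Most mature neutrophils do not divide, whereas their precursors, which make granule proteins such as MPO and elastase, do.

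Library totals ran from 29490567 to 66637052 counts, and 3 counts in a library, used here as the floor, corresponded to 0.0477 to 0.100 CPM, which are counts scaled to a common library size by the TMM method. Tyrobp was at 3.22 to 8.94 CPM in the 5 Tyrobp-/- libraries, against 1952 to 2560.1 CPM in the other 6. Inpp5d was at 189.8 to 279.8 CPM in the 6 Inpp5d+/- libraries and at 205 to 449 CPM in the 5 with both copies, and these ranges overlapped (log2 fold change averaged over Tyrobp genotype -0.70, SE 0.19, edgeR adjusted p = 0.943). The microglial markers summed to 51058 to 61283 CPM in every library. Neutrophil markers moved with Tyrobp genotype: S100a8 was at 6925 and 1604 CPM in the Tyrobp single mutant, 94.0, 3645 and 783 CPM in the compound mutant, and 0.240 to 80.9 CPM in the other 6 libraries. The titles of the Tyrobp-/- libraries carry numbers in another range than those of the other 6 libraries, and the labels do not say what the numbers stand for. A difference with Tyrobp genotype therefore cannot be told apart from one in handling or litter, and in bulk RNA fewer cells of a type cannot be told apart from less RNA per cell.

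The upstream sequences of 5 members are shown because Mcm2, Mcm3 and Mcm6 had the smallest p values of the 40 between both groups without Tyrobp, and Mki67 and Top2a are the usual markers of dividing cells. Each is the 250 bases before the gene start in RefSeq on GRCm38.p6, all on the minus strand: Mcm2 at chr6:88898781-88899030, Mcm3 at chr1:20820313-20820562, Mcm6 at chr1:128359706-128359955, Mki67 at chr7:135716380-135716629 and Top2a at chr11:99024190-99024439. Capitals mark matches, on either strand, to 3 motifs of cell cycle promoters: E2F sites (TTTCCCGC, TTTCGCGC, TTTGCCGC or TTTGGCGC), the CHR element (TTTGAA or TTCGAA) and the CCAAT box (CCAAT, or ATTGG on the other strand).
Mcm2: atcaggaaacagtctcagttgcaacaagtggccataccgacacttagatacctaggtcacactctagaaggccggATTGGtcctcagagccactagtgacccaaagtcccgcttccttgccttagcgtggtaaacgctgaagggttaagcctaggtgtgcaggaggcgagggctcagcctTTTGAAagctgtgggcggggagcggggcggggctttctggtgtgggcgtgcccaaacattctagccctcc
Mcm3: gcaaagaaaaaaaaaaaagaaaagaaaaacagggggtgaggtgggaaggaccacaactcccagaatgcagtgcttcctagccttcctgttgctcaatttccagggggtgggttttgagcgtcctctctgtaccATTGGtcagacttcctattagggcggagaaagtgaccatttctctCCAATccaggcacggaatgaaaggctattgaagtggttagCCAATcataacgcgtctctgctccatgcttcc
Mcm6: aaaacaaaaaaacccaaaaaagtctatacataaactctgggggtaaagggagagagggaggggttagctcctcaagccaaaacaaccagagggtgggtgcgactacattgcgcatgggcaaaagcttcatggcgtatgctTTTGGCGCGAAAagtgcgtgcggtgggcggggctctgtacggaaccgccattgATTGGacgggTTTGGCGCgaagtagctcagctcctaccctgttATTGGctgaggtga
Mki67: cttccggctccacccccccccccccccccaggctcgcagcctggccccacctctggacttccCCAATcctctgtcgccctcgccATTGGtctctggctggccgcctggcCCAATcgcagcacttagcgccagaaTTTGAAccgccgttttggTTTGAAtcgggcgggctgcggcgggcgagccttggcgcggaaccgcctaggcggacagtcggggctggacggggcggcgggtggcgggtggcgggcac
Top2a: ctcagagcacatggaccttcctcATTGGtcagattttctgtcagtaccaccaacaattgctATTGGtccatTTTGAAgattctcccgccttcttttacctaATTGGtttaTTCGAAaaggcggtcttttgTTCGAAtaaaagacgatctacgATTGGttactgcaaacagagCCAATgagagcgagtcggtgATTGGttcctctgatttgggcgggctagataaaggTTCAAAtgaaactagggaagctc
In the Mcm6 window 2 of the E2F matches overlap on opposite strands and are printed as 1 run. Among all 40 members, 32 had 36 promoters in the RefSeq table. A CCAAT box was present in 16 of 18 promoters of the mitotic members (88.9%) and in 9 of 13 of the replication, nucleotide synthesis and G1/S entry members (69.2%), against 33.8% of all 32851 promoters. The CHR element was present in 9 of the 18 mitotic promoters (50%) and 2 of the 13 others (15.4%), against 17.1% of all. An E2F match was present in 1 of the 18 (5.56%) and 3 of the 13 (23.1%), against 1.86% of all. These are letter matches in a fixed window and say nothing of whether a factor was bound.

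Genes of replication licensing and the sliding clamp were among the most abundant members, and most mitotic kinase, checkpoint and spindle genes among the least. Per kilobase of exon, Pcna, the sliding clamp of DNA polymerase, had the highest median level over the 11 libraries at 37.7 CPM per kb. Stmn1, which encodes the microtubule-destabilising protein stathmin, followed at 22.6, Mcm3 at 15.8 and the CDK inhibitor gene Cdkn1a at 9.21 CPM per kb. The median over all genes tested was 1.93 CPM per kb, and 18 of the 40 members lay above it. The 7 licensing and clamp genes had a median of 6.36 CPM per kb, the 6 mitotic kinase and checkpoint genes 0.958 and the 8 spindle and cytokinesis genes 0.502 CPM per kb. Between these lay the 4 genes of CDK1 and the S/G2/M cyclins at 3.17, the 4 nucleotide synthesis genes at 2.26 and the 2 mitotic exit genes at 2.23 CPM per kb. Mki67, the gene of the proliferation antigen Ki-67, was lowest of the 40 at 0.0498 CPM per kb, with Cenpf at 0.0582 and Ccnd2 at 0.0855 just above it. Of the 40, 25 averaged under 10 CPM and 10 had 0 counts in at least 1 library.

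**Figure D1:**
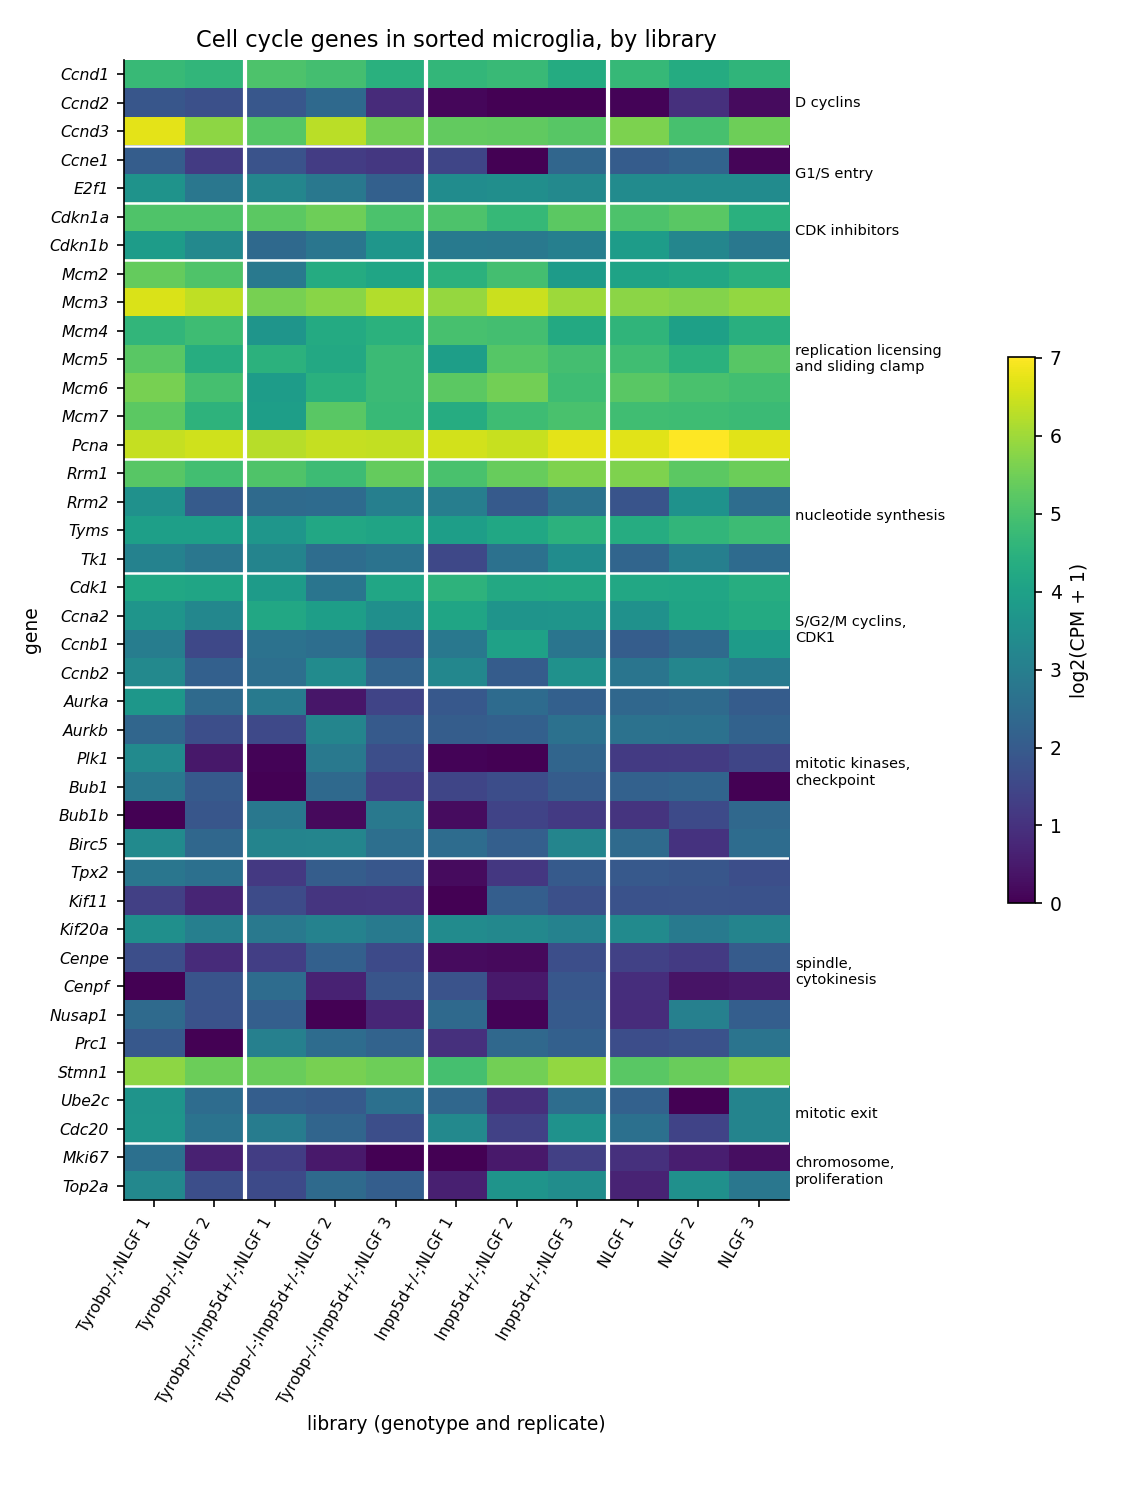
Level of each of the 40 genes, as log2(CPM + 1), in the 11 libraries; rows are grouped by role and columns by genotype. The licensing and clamp genes, Stmn1, Ccnd1 and Ccnd3 were bright in every library, and most mitotic kinase, checkpoint and spindle genes were low and patchy. Mki67 was between 0 and 5.06 CPM.

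The members varied more between libraries of the same genotype than other genes of like abundance did. Their median coefficient of variation within groups was 47.5%, against 36.5% for genes with a similar mean CPM, and 32 of the 40 lay above their own comparison value. Pcna was among the steadiest, at 9.11%, and Plk1, which encodes a mitotic kinase, the least steady at 121%. Members of low level had wide errors in each comparison.

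By edgeR a single member differed between genotypes beyond the spread of the libraries. In edgeR's quasi-likelihood test with Benjamini-Hochberg adjustment over all genes, no member passed in the Tyrobp single mutant against NLGF, where 0.863% of all genes passed, 0.255% higher and 0.608% lower. None passed in the compound mutant against Inpp5d+/-;NLGF, where 0.897% of all genes did (0.265% higher and 0.633% lower). None passed in the compound mutant against NLGF, where 0.873% did (0.24% higher and 0.633% lower). None passed in Inpp5d+/-;NLGF against NLGF (0%) or in the compound mutant against the Tyrobp single mutant (0.00981%). When the 5 Tyrobp-/- libraries were set against the other 6, averaged over Inpp5d genotype in the same model, 1 member, Ccnd2, rose and none fell, while 4.75% of all genes passed (2.08% higher and 2.66% lower). Neither Inpp5d+/- averaged over Tyrobp genotype nor the interaction of both genes called any member, and both called 0% of all genes.

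At an unadjusted p below 0.05 the number of members was 5 of 40 in the Tyrobp single mutant against NLGF, against 12.1% of all genes. It was 2 in the compound mutant against Inpp5d+/-;NLGF, 3 against NLGF and 3 against the Tyrobp single mutant, where 13.4%, 13% and 4.08% of all genes did so. It was 1 in Inpp5d+/-;NLGF against NLGF (4.66% of all genes), 4 in the Tyrobp average (19.2%), 0 in the Inpp5d average (5.16%) and 4 in the interaction (4.70%). DESeq2 called 1 member in the Tyrobp single mutant against NLGF (Mcm3), 1 in the compound mutant against Inpp5d+/-;NLGF (Ccnd2), 1 in the compound mutant against NLGF (Pcna) and 3 in the Tyrobp average (Ccnd2, Ccnd3 and Pcna). It called 0 in the other 4 comparisons, and voom in limma called Ccnd2 in the Tyrobp average and 0 elsewhere. These comparisons share libraries, so their values for a gene are not independent of each other.

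The D cyclins start the cycle by binding CDK4 and CDK6, and the 3 genes behaved differently. Ccnd2, which encodes cyclin D2 (ENSMUSG00000000184.12, chr6:127125162-127152193, minus strand, GRCm38.p6), was at 2.71 and 2.29 CPM in the Tyrobp single mutant and at 2.73, 4.25 and 0.804 CPM in the compound mutant. It was at 0.0818, 0 and 0 CPM in Inpp5d+/-;NLGF and at 0.0481, 0.968 and 0.159 CPM in NLGF. All Tyrobp-/- libraries but 1, replicate 3 of the compound mutant, lay above every other library. These values rest on 40 to 267 counts a library in Tyrobp-/- mice and on 0 to 29 counts in the others. Averaged over Inpp5d genotype, the log2 fold change was 4.54 (SE 1.02, edgeR adjusted p = 0.0351). It was 6.38 (SE 1.55, edgeR adjusted p = 0.110) in the compound mutant against Inpp5d+/-;NLGF and 2.703 (SE 1.34, edgeR adjusted p = 0.470) in the Tyrobp single mutant against NLGF, and neither passed. Since Inpp5d+/-;NLGF had 4, 0 and 0 counts, the size of the first of these folds is loosely fixed.

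The Ccnd2 call was not firm. With 1 library left out at a time the log2 fold change of the Tyrobp average ran from 4.26 to 6.38 and the gene was called in 3 of 11 edgeR fits, those without replicate 3 of the compound mutant, replicate 1 of Inpp5d+/-;NLGF or replicate 2 of NLGF. The edgeR adjusted p was 0.102 without replicate 1 and 0.0861 without replicate 2 of the Tyrobp single mutant, and 0.0605 and 0.0743 without replicates 1 and 2 of the compound mutant. It was 0.0695 and 0.0734 without replicates 2 and 3 of Inpp5d+/-;NLGF, and 0.0560 and 0.0762 without replicates 1 and 3 of NLGF. With a neutrophil marker score as a covariate the log2 fold change was 3.47 (SE 1.45, edgeR adjusted p = 0.480), and without the 2 libraries richest in S100a8 it was 4.21 (SE 1.22, edgeR adjusted p = 0.193). Among the Tyrobp-/- libraries, replicate 2 of the compound mutant, second in summed precursor markers, had the highest Ccnd2, 4.25 CPM with 23.4 CPM of Mpo. Replicate 3 had the lowest Ccnd2, 0.804 CPM, with 0.0402 CPM of Mpo but 1110 CPM summed over 12 precursor markers. Replicate 1 of the compound mutant had 2.73 CPM of Ccnd2 with 0.132 CPM of Mpo and a precursor sum of 160 CPM. Replicate 1 of the Tyrobp single mutant had 2.71 CPM of Ccnd2 with 80.4 CPM of Mpo. Among the other 6, replicate 2 of NLGF had both the highest precursor sum, 141 CPM, and the highest Ccnd2, 0.968 CPM. Its Mpo was at 0.0334 CPM. Replicate 3 of NLGF had the most Mpo of those 6, 1.80 CPM, and less Ccnd2 than replicate 2. The neutrophil score averaged mature and precursor markers, at 0.262 to 7.02 in Tyrobp-/- libraries and -3.03 to 0.461 in the others. Because the score moved with Tyrobp genotype, a call lost under it, for any gene, cannot be told apart from a loss of precision. The part of precursor RNA in the Ccnd2 difference was not tested. Replicate 1 of the compound mutant also had the most neuronal RNA, 33.8 CPM summed over 9 markers, against 0.499 to 8.22 CPM in the other 10 libraries. Replicate 2 of the Tyrobp single mutant, with 2.29 CPM of Ccnd2, had 0.499 CPM of neuronal markers, and with a neuron marker score as a covariate the Ccnd2 value was 4.64 (edgeR adjusted p = 0.0488).

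Ccnd3, the cyclin D3 gene (chr17:47505051-47599691, plus strand), was at 105 and 56.0 CPM in the Tyrobp single mutant and at 34.9, 76.6 and 44.8 CPM in the compound mutant. It was at 39.4, 38.2 and 35.6 CPM in Inpp5d+/-;NLGF and at 48.6, 30.2 and 43.2 CPM in NLGF. The 3 libraries above 50 CPM were Tyrobp-/- libraries, and the other 2 Tyrobp-/- libraries lay among the rest. The Tyrobp average was a log2 fold change of 0.73 (SE 0.24, edgeR adjusted p = 0.128), which did not pass, while DESeq2 called it (adjusted p = 0.0197). The 3 libraries with most Ccnd3 were those with most S100a8, and the rest did not follow this order. Replicate 1 of NLGF had 48.6 CPM of Ccnd3 with 0.240 CPM of S100a8, and replicate 3 of the compound mutant 44.8 CPM with 783 CPM. Without the 2 libraries richest in S100a8 the Tyrobp average of Ccnd3 was 0.27, and with the neutrophil covariate it was -0.02. The part of neutrophil RNA in the Ccnd3 difference was not tested further. Ccnd1, the cyclin D1 gene, was at 20.99 to 32.2 CPM in the Tyrobp-/- libraries and at 18.8 to 26.1 CPM in the others, with a log2 fold change of 0.20 (SE 0.15).

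**Figure D2:**
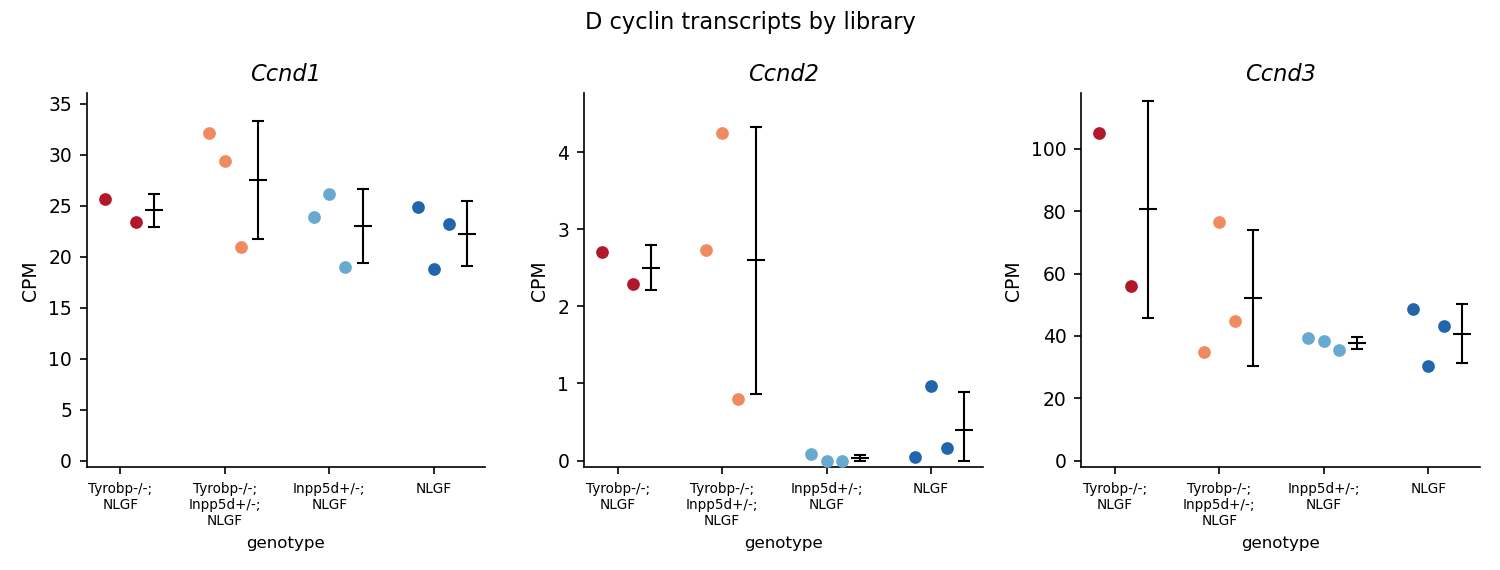
CPM of Ccnd1, Ccnd2 and Ccnd3 in each library (points) by genotype, with the mean and SD at the right of each group, the lower bar ending at 0 where the SD is larger than the mean. Ccnd2 was at 0.804 to 4.25 CPM in the 5 Tyrobp-/- libraries and at 0 to 0.968 CPM in the other 6; Ccnd3 was high in single Tyrobp-/- libraries.

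At the next step, E2f1, a transcription factor that switches on replication genes, was at 11.2 and 5.83 CPM in the Tyrobp single mutant and 8.35, 6.00 and 3.42 CPM in the compound mutant. It was at 9.71, 9.99 and 8.78 CPM in Inpp5d+/-;NLGF and 9.36, 9.38 and 9.36 CPM in NLGF. Each compound mutant library lay below all Inpp5d+/-;NLGF and all NLGF libraries. The log2 fold changes were -0.68 (SE 0.34) and -0.66 (SE 0.34), with edgeR adjusted p of 0.421 and 0.455. Ccne1, the cyclin E1 gene, was at 1.21 to 3.23 CPM in Tyrobp-/- libraries and at 0 to 3.97 CPM in the others. Of the inhibitors, Cdkn1a (p21, a p53 target) was at 31.6 to 43.0 CPM in Tyrobp-/- libraries and at 20.8 to 36.8 CPM in the others. Cdkn1b (p27, which holds resting cells in G0) was at 4.26 to 13.8 CPM in Tyrobp-/- libraries and at 6.01 to 13.7 CPM in the others.

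The 6 MCM genes encode the subunits of the replicative helicase. Mcm2, Mcm3, Mcm6 and Mcm7 averaged highest in the Tyrobp single mutant. For Mcm6 and Mcm7 the lower of its 2 libraries, at 29.7 and 22.4 CPM, lay within the range of Inpp5d+/-;NLGF. Mcm2, Mcm3, Mcm4 and Mcm6 were lower in the compound mutant than in the Tyrobp single mutant, without overlap of libraries but none of them past the threshold. Mcm2 (chr6:88883474-88898780, minus strand) was at 39.9 and 32.8 CPM in the Tyrobp single mutant and at 6.16, 18.8 and 16.4 CPM in the compound mutant. It was at 21.7, 29.3 and 13.3 CPM in Inpp5d+/-;NLGF and at 15.7, 17.4 and 20.9 CPM in NLGF. Both Tyrobp single mutant libraries were above every other library. The log2 fold change was 1.01 (SE 0.44, edgeR adjusted p = 0.393) for the Tyrobp single mutant against NLGF and -1.40 (SE 0.44, edgeR unadjusted p = 0.00983, adjusted p = 1) for the compound mutant against the Tyrobp single mutant.

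Mcm3 (chr1:20802968-20820312, minus strand) was at 96.9 and 80.0 CPM in the Tyrobp single mutant and 47.0, 53.7 and 73.1 CPM in the compound mutant, and these did not overlap. It was at 59.2, 86.9 and 62.2 CPM in Inpp5d+/-;NLGF and at 54.7, 52.0 and 58.3 CPM in NLGF, also without overlap. The Tyrobp single mutant exceeded NLGF by a log2 fold change of 0.69 (SE 0.22, edgeR adjusted p = 0.214), and the compound mutant differed from the Tyrobp single mutant by -0.61 (SE 0.22, edgeR adjusted p = 1). Mcm6 (chr1:128331590-128359664, minus strand) was at 46.5 and 29.7 CPM in the Tyrobp single mutant and 13.6, 21.04 and 26.7 CPM in the compound mutant. It was at 37.2, 44.9 and 27.6 CPM in Inpp5d+/-;NLGF and 36.1, 30.8 and 28.8 CPM in NLGF. Every compound mutant library was below every other library for Mcm6, with a log2 fold change of -0.90 (SE 0.31) against the Tyrobp single mutant, -0.84 (SE 0.28) against Inpp5d+/-;NLGF and -0.64 (SE 0.28) against NLGF. Their edgeR adjusted p values were 1, 0.238 and 0.375. Mcm4 was at 23.5 and 27.9 CPM in the Tyrobp single mutant and 11.6, 18.7 and 21.4 CPM in the compound mutant (log2 fold change -0.57, SE 0.31, edgeR adjusted p = 1). It was at 30.7, 29.01 and 18.2 CPM in Inpp5d+/-;NLGF and 22.9, 14.99 and 20.6 CPM in NLGF, so the compound mutant overlapped with both and the Tyrobp single mutant lay above NLGF. Mcm5 and Mcm7 ranged from 14.3 to 37.0 CPM and had no adjusted p below the threshold in any comparison.

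The 6 MCM genes together had 280.2 and 212 CPM in the Tyrobp single mutant and 114, 166 and 189 CPM in the compound mutant. They had 182, 252.6 and 182 CPM in Inpp5d+/-;NLGF and 186, 165 and 191 CPM in NLGF. The 3 compound mutant libraries lay below both Tyrobp single mutant libraries. All 7 licensing and clamp genes were lower in the compound mutant than in the Tyrobp single mutant, with a median log2 fold change of -0.57, against 0.01 for all genes. Where Tyrobp was present, 4 of the 7 were higher and 3 lower in Inpp5d+/-;NLGF than in NLGF, with a median of 0.20. The interaction, which is the Inpp5d difference without Tyrobp minus that with Tyrobp, was -1.65 (SE 0.59) for Mcm2, -0.95 (SE 0.29) for Mcm3, -0.99 (SE 0.42) for Mcm4 and -1.09 (SE 0.42) for Mcm6 on the log2 scale. No interaction passed in edgeR (adjusted p = 0.9999), and the group of 2 libraries enters each of them. Without replicate 1 of the Tyrobp single mutant the Mcm6 difference between the compound mutant and the Tyrobp single mutant was -0.54, and that of Mcm2 was -1.26.

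**Figure D3:**
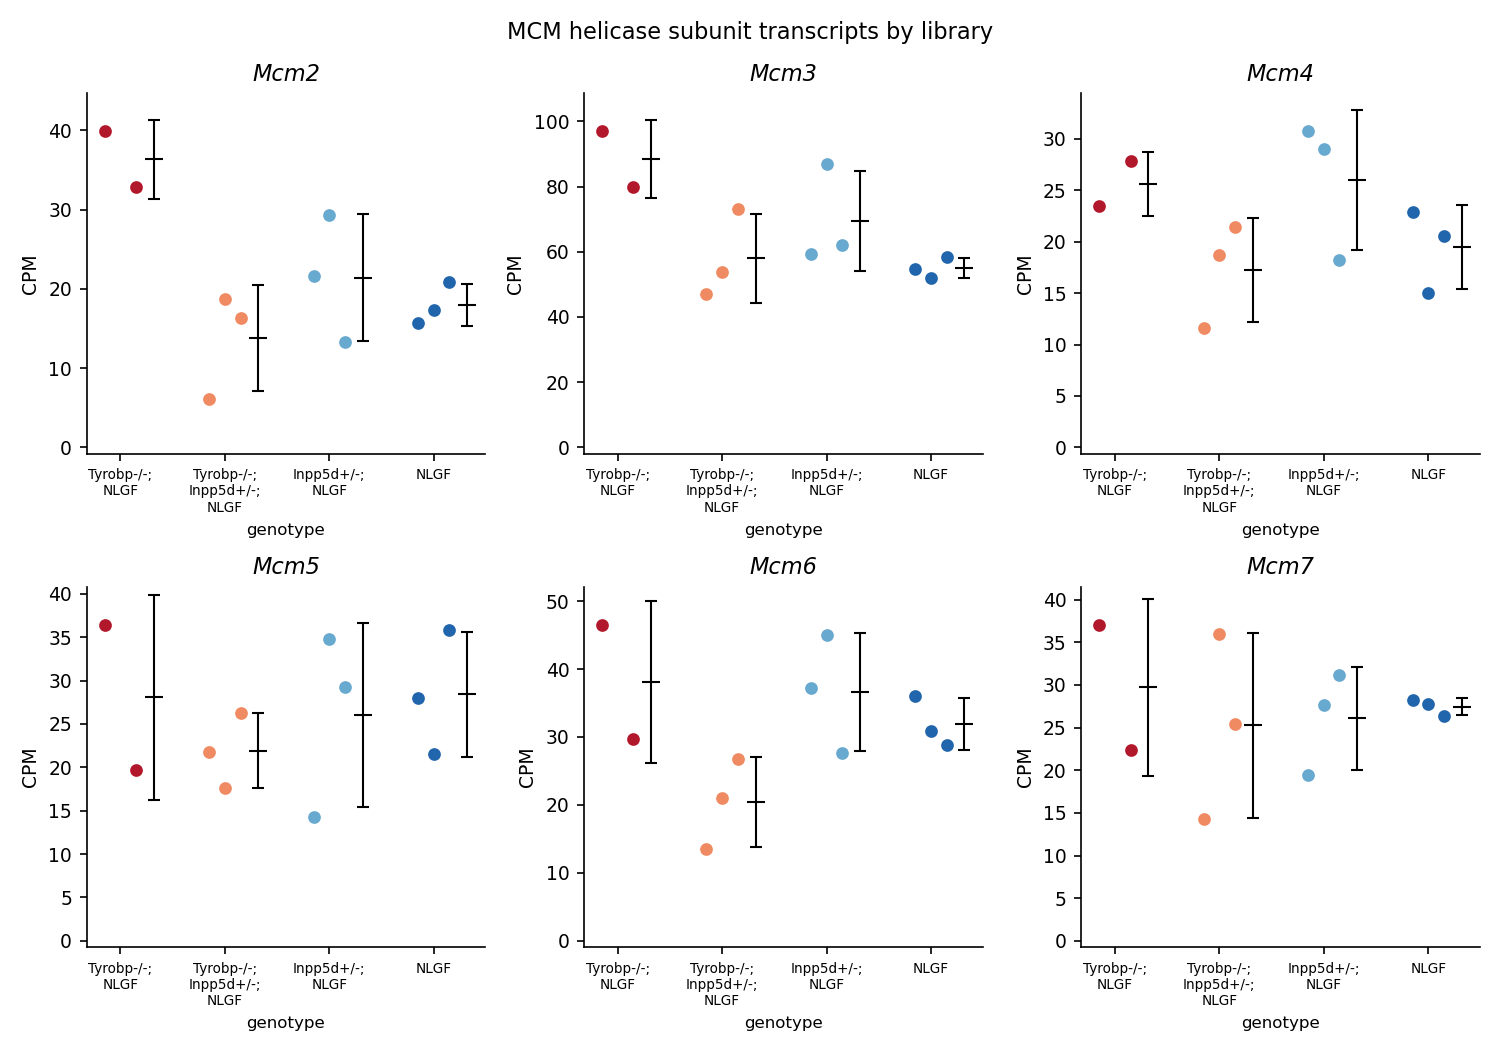
CPM of Mcm2 to Mcm7 in each library (points) by genotype, with the mean and SD at the right of each group. For Mcm2, Mcm3, Mcm4 and Mcm6 all compound mutant libraries lay below both Tyrobp single mutant libraries, and no MCM gene passed the edgeR threshold.

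Pcna (chr2:132249162-132253314, minus strand) was on average lower where Tyrobp was absent. It was at 84.0 and 90.4 CPM in the Tyrobp single mutant and 75.9, 82.8 and 82.3 CPM in the compound mutant, against 92.1, 85.5 and 105 CPM in Inpp5d+/-;NLGF and 103, 129 and 103 CPM in NLGF. The compound mutant lay below both groups with Tyrobp, and NLGF lay above both Tyrobp-/- groups. The log2 fold change of the compound mutant against NLGF was -0.47 (SE 0.12, edgeR adjusted p = 0.134), and that of the Tyrobp average was -0.29 (SE 0.09, edgeR adjusted p = 0.116). Neither passed in edgeR, and DESeq2 called both, with adjusted p of 0.0147 and 0.0428. With the neutrophil covariate the Tyrobp average was -0.43 (edgeR adjusted p = 0.445).

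Among genes of nucleotide synthesis, Tyms, the thymidylate synthase gene, was at 14.7 and 14.7 CPM in the Tyrobp single mutant and 11.9, 17.6 and 16.1 CPM in the compound mutant. It was at 14.3, 17.2 and 21.6 CPM in Inpp5d+/-;NLGF and 19.2, 23.7 and 27.1 CPM in NLGF. Both Tyrobp-/- groups lay below NLGF without overlap, with log2 fold changes of -0.67 (SE 0.25, edgeR adjusted p = 0.316) and, for the compound mutant, -0.62 (SE 0.22, edgeR adjusted p = 0.284). Rrm1, the large subunit of ribonucleotide reductase, was at 27.1 to 39.8 CPM in Tyrobp-/- libraries and at 30.9 to 49.5 CPM in the others. Its small subunit gene Rrm2 was at 3.07 to 10.8 CPM and at 2.56 to 10.9 CPM, and the salvage enzyme gene Tk1 at 4.73 to 7.89 CPM and at 1.86 to 9.68 CPM.

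The 4 genes of CDK1 and the S/G2/M cyclins were lower in both Tyrobp-/- groups than in NLGF in their fitted values, and none passed. Cdk1, the mitotic kinase, was at 17.1 and 16.3 CPM in the Tyrobp single mutant and 13.4, 5.68 and 16.9 CPM in the compound mutant. It was at 22.1, 17.7 and 18.2 CPM in Inpp5d+/-;NLGF and 17.4, 16.9 and 19.7 CPM in NLGF. The compound mutant lay below Inpp5d+/-;NLGF without overlap (log2 fold change -0.69, SE 0.33, edgeR adjusted p = 0.402). Its partner genes Ccna2, Ccnb1 and Ccnb2 ranged from 8.55 to 17.4, 1.87 to 6.79 and 3.42 to 9.49 CPM in Tyrobp-/- libraries. In the other libraries they ranged from 10.8 to 18.7, 3.19 to 15.3 and 3.15 to 10.8 CPM. The highest Ccnb1 values, 15.3 and 13.4 CPM, were in replicate 2 of Inpp5d+/-;NLGF and replicate 3 of NLGF.

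The 6 mitotic kinase and checkpoint genes were low and uneven. Plk1 was at 9.26 and 0.370 CPM in the Tyrobp single mutant and 0.0565, 6.14 and 2.19 CPM in the compound mutant. It was at 0.0409, 0 and 3.92 CPM in Inpp5d+/-;NLGF and 1.30, 1.33 and 1.78 CPM in NLGF, so libraries of a group differed more than groups did. Aurka, the spindle pole kinase, peaked at 12.2 CPM in replicate 1 of the Tyrobp single mutant and was lowest at 0.350 CPM in replicate 2 of the compound mutant. Aurkb, the chromosomal passenger kinase, peaked at 8.10 CPM in that replicate of the compound mutant and its passenger partner Birc5, survivin, at 9.32 CPM in replicate 1 of the Tyrobp single mutant. Birc5 was at 8.01, 8.20 and 4.87 CPM in the compound mutant and at 4.42, 1.03 and 4.58 CPM in NLGF, without overlap (log2 fold change 1.06, SE 0.58, edgeR adjusted p = 0.480). The spindle checkpoint genes Bub1 and Bub1b each had 0 counts in 1 library, replicate 3 of NLGF for Bub1 and replicate 1 of the Tyrobp single mutant for Bub1b.

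The spindle and cytokinesis genes gave no call. Tpx2, which activates Aurora A on microtubules, was at 5.72 and 4.99 CPM in the Tyrobp single mutant, above the 0.164 to 3.18 CPM of all other libraries (log2 fold change against NLGF 1.04, SE 0.84, edgeR adjusted p = 0.704). Prc1, which bundles the central spindle, was at 2.81 and 0 CPM in the Tyrobp single mutant and at 7.35, 4.60 and 3.72 CPM in the compound mutant (log2 fold change 1.90, SE 1.41, edgeR adjusted p = 1). The motor genes Kif11 and Kif20a and the kinetochore genes Cenpe and Cenpf stayed between 0 and 10.3 CPM in Tyrobp-/- libraries and between 0 and 9.42 CPM in the others. Nusap1, a spindle-binding protein gene, was at 0.0159 to 4.42 CPM in Tyrobp-/- libraries and at 0.0402 to 7.28 CPM in the others. Stmn1 was at 41.9 to 55.7 CPM in Tyrobp-/- libraries and at 29.7 to 58.2 CPM in the others. Of the mitotic exit genes, Ube2c, the E2 enzyme of the anaphase-promoting complex, was at 2.99 to 11.3 CPM in Tyrobp-/- libraries and at 0 to 8.02 CPM in the others. Its activator gene Cdc20 was at 2.23 to 11.6 CPM and at 1.57 to 10.9 CPM.

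Mki67 (chr7:135689784-135716361, minus strand), the usual marker of dividing cells, was at 5.06 and 0.573 CPM in the Tyrobp single mutant and 1.43, 0.382 and 0 CPM in the compound mutant. It was at 0, 0.402 and 1.497 CPM in Inpp5d+/-;NLGF and 0.962, 0.501 and 0.191 CPM in NLGF. Replicate 1 of the Tyrobp single mutant alone was above 1.497 CPM. The log2 fold change of the Tyrobp single mutant against NLGF was 2.35 (SE 1.91, edgeR adjusted p = 0.706). Top2a, which encodes the topoisomerase that untangles replicated chromosomes, was at 8.66 and 2.22 CPM in the Tyrobp single mutant and 1.96, 4.36 and 3.26 CPM in the compound mutant. It was at 0.532, 11.4 and 9.93 CPM in Inpp5d+/-;NLGF and 0.625, 10.5 and 5.84 CPM in NLGF, with log2 fold changes of -0.05 (SE 1.21) for the Tyrobp single mutant against NLGF and -0.62 (SE 0.82) for the Tyrobp average. With errors this wide, changes of severalfold in either direction were not detectable.

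A single library stood at the top of the module. Replicate 1 of the Tyrobp single mutant was the highest of the 11 libraries for 17 of the 40 members (42.5%), against 11.5% of all genes tested, and for 9 of the 21 G2/M members other than Stmn1 (42.9%). Those 21 genes summed to 149 and 78.3 CPM in the Tyrobp single mutant and 103, 93.8 and 82.3 CPM in the compound mutant. They summed to 96.5, 94.8 and 123 CPM in Inpp5d+/-;NLGF and 86.9, 98.9 and 122 CPM in NLGF. The other replicate of the Tyrobp single mutant had the lowest sum of all 11.

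Replicate 1 of the Tyrobp single mutant also had the highest levels of the neutrophil precursor markers named here. Mpo was at 80.4 and 0.0740 CPM in the Tyrobp single mutant and 0.132, 23.4 and 0.0402 CPM in the compound mutant, against 0 to 1.80 CPM in the other 6 libraries. Elane was at 81.2, Prtn3 at 19.8, Ms4a3 at 7.85 and Fcnb at 82.2 CPM in replicate 1 of the Tyrobp single mutant, and at 20.8, 4.19, 1.70 and 12.9 CPM in replicate 2 of the compound mutant. The 12 precursor markers summed to 160.2 to 8865 CPM in the Tyrobp-/- libraries and to 5.82 to 141 CPM in the other 6. In replicate 1 of the Tyrobp single mutant, Ngp at 4281 CPM and Chil3 at 1421 CPM gave most of that sum. Mpo and Elane, unlike the sum, overlapped between the Tyrobp-/- and the other libraries. Replicate 2 of the Tyrobp single mutant had a sum of 1857 CPM with 0.0740 CPM of Mpo and 0.0925 CPM of Elane. The sum therefore cannot be read as RNA of dividing precursors. None of the 12 was at 0 in all libraries, and Gfi1 was detected in replicate 1 of the Tyrobp single mutant alone, at 3.39 CPM. The 10 mature neutrophil markers summed to 398 to 12258 CPM in Tyrobp-/- libraries and 344 to 502 CPM in the others, with overlap. Replicate 1 of NLGF summed to 365 CPM with 0.240 CPM of S100a8, 0.208 CPM of S100a9 and 4 of the 10 at 0. Most of the sum there thus came from other genes of the list. The 10 monocyte markers summed to 116 to 1954 CPM in Tyrobp-/- libraries and 17.6 to 70.3 CPM in the others. Chil3 was on both the precursor and the monocyte list and gave 1421 of the 1954 CPM. The 13 lymphocyte markers summed to 23.8 to 51.5 CPM and 19.2 to 35.4 CPM, with 6 at 0 in every library. Replicate 2 of the compound mutant, second in the precursor marker sum, was highest for 4 of the 40 members and had a G2/M sum of 93.8 CPM. Without replicate 1 of the Tyrobp single mutant the median of the 40 members in the compound mutant against the Tyrobp single mutant was 0.06 in place of -0.36 on the log2 scale, and without both libraries richest in S100a8 it was 0.03. The part of precursor RNA in the values of single members was not tested, because the neutrophil covariate and these omissions both join mature and precursor markers.

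**Figure D4:**
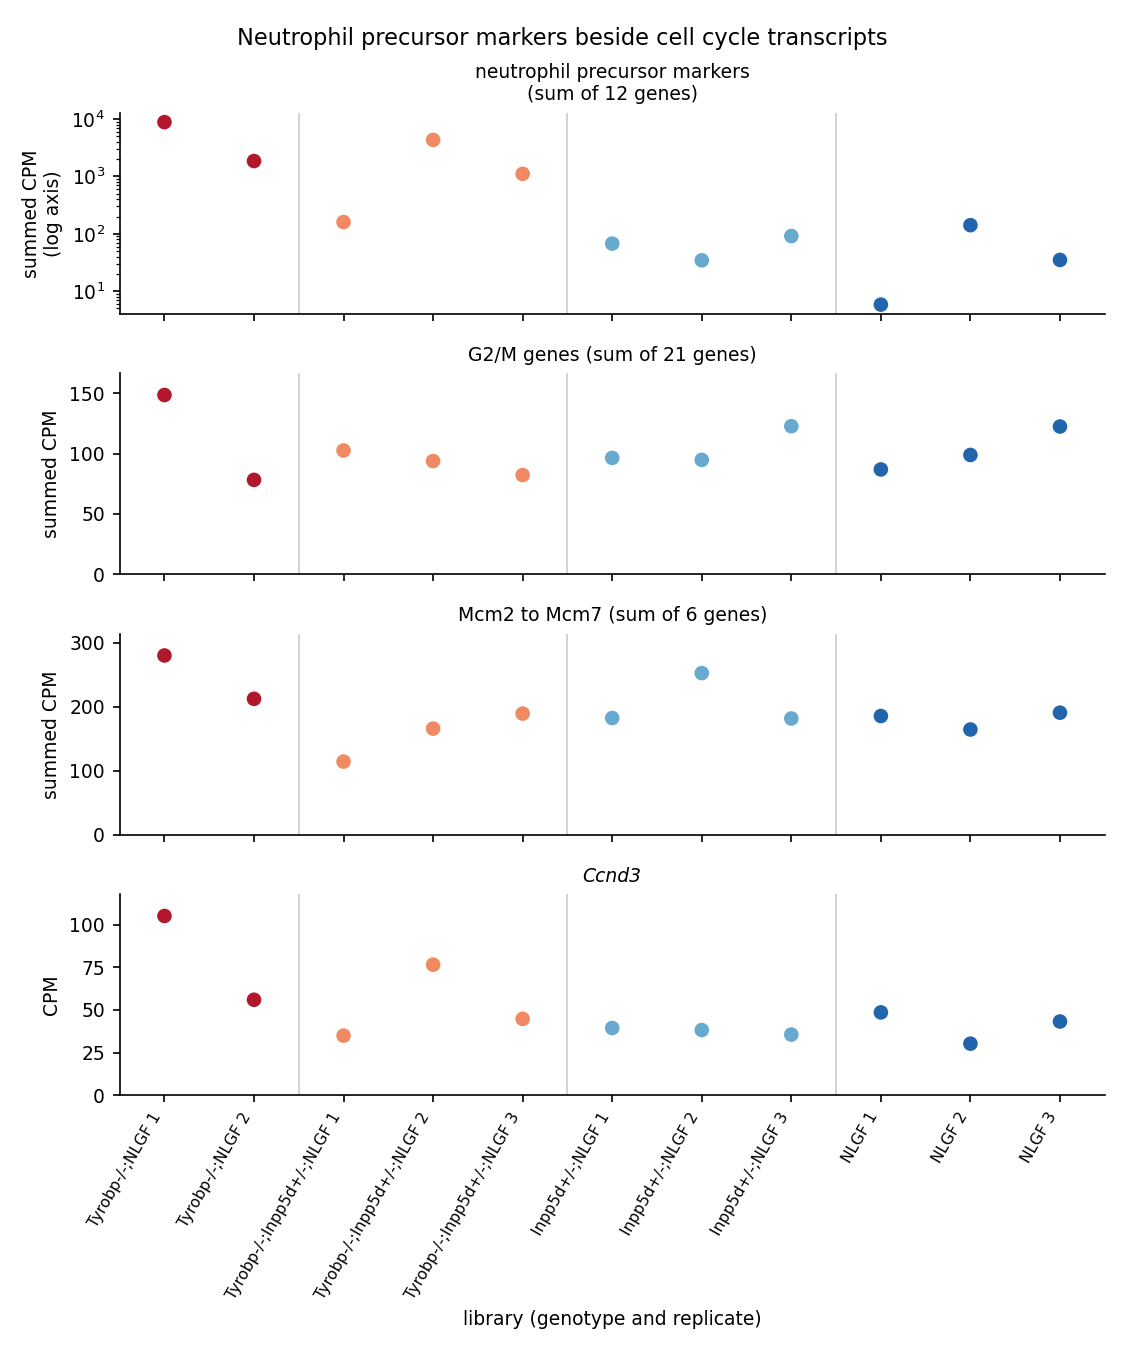
Summed CPM of 12 neutrophil precursor markers (log axis), of 21 G2/M genes and of Mcm2 to Mcm7, and CPM of Ccnd3, in each of the 11 libraries by genotype. Ngp and Chil3 gave most of the precursor marker sum in replicate 1 of the Tyrobp single mutant. Replicate 1 of the Tyrobp single mutant was highest in all 4 panels, at 8865, 149, 280.2 and 105 CPM; replicate 2 of the compound mutant was second in precursor markers and in Ccnd3 but not in the G2/M or MCM sums.

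The direction of the whole list depended on single libraries. The median log2 fold change of the 40 members was 0.14 in the Tyrobp single mutant against NLGF, -0.12 in the compound mutant against Inpp5d+/-;NLGF, -0.17 in the compound mutant against NLGF and 0.06 in the Tyrobp average. The medians over all genes tested were 0.00, 0.02, 0.03 and 0.02. The median was -0.08 in Inpp5d+/-;NLGF against NLGF and -0.36 in the compound mutant against the Tyrobp single mutant, beside 0 and 0.01 for all genes. In the Inpp5d average 30 of the 40 members were lower and 10 higher, with a median of -0.18, beside 0.00 for all genes, of which 50.7% were higher, and none passed. Without replicate 1 of the Tyrobp single mutant the median was 0.04 in the Inpp5d average, -0.12 in the Tyrobp single mutant against NLGF and -0.21 in the Tyrobp average, each of the opposite sign. Without replicate 1 of Inpp5d+/-;NLGF it was 0.06 in Inpp5d+/-;NLGF against NLGF, and without replicate 2 of NLGF it was 0.0017. Without replicate 3 of Inpp5d+/-;NLGF it was 0.07 in the compound mutant against Inpp5d+/-;NLGF. In the compound mutant against NLGF the median stayed below 0, from -0.24 to -0.03, with each of the 11 libraries left out in turn.

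Counting members whose libraries did not overlap gave 6 higher and 4 lower in the Tyrobp single mutant against NLGF, where 29.6% of all genes did not overlap, 15.6% higher and 14% lower. Those higher were Ccnd2, Ccnd3, Mcm2, Mcm3, Mcm4 and Tpx2, and those lower were Pcna, Tyms, Rrm1 and Kif11. The compound mutant gave 1 higher and 5 lower against Inpp5d+/-;NLGF, where 18.6% of all genes did not overlap, 9.36% higher and 9.22% lower. It gave 1 higher and 5 lower against NLGF, where 18% did, 9.04% higher and 8.92% lower. It gave 1 higher and 6 lower against the Tyrobp single mutant, where 18.8% did, 9.13% higher and 9.66% lower. Inpp5d+/-;NLGF against NLGF gave 1, Mcm3, higher, where 7.62% did, 3.64% higher and 3.97% lower. The 5 Tyrobp-/- libraries against the other 6 gave none, where 6.17% did, 2.7% higher and 3.47% lower. Counted in either direction, the members' share was below that of all genes in each of these 6 comparisons. The share of members lower was above that of all genes in the 3 comparisons of the compound mutant, and these differences in share were not tested.

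**Figure D5:**
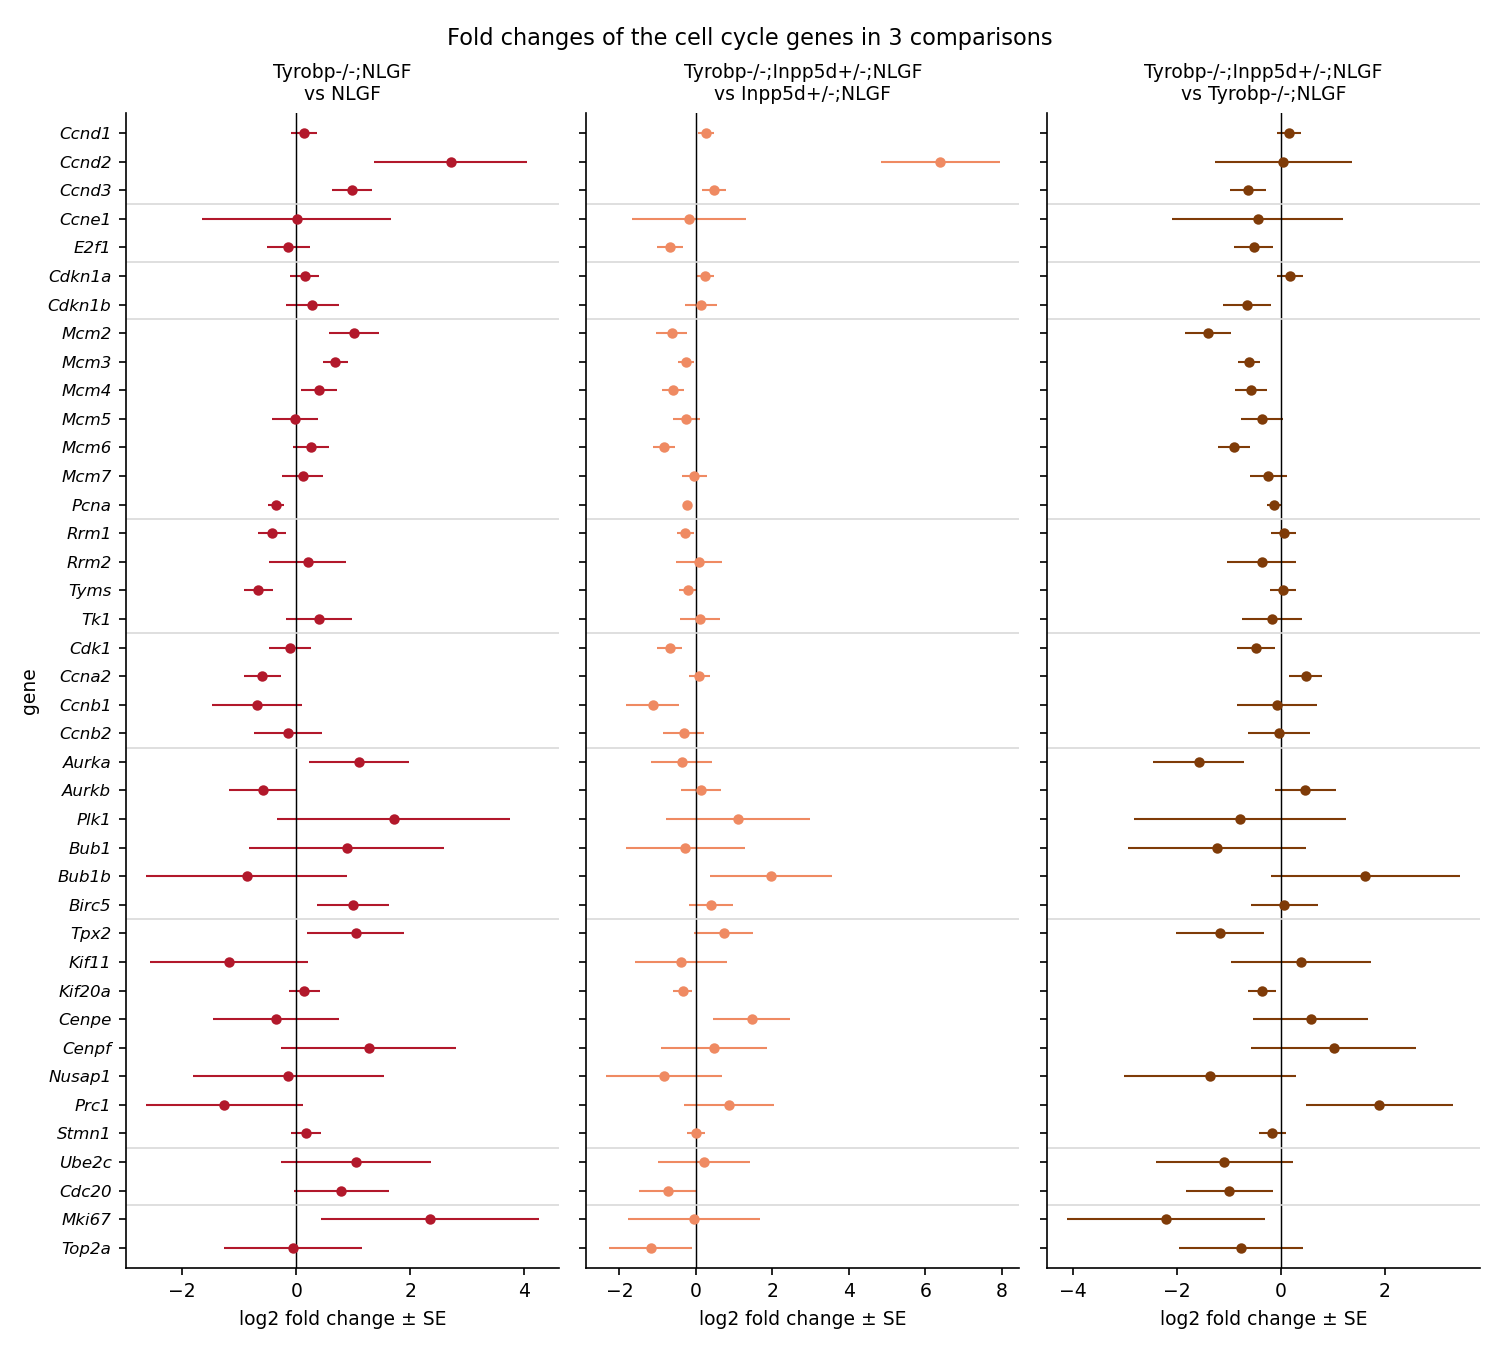
log2 fold change with its SE (edgeR) of each of the 40 genes in the Tyrobp single mutant against NLGF, the compound mutant against Inpp5d+/-;NLGF and the compound mutant against the Tyrobp single mutant; grey lines separate roles. Ccnd2 in the second comparison, at 6.38, was the largest of the 40, the 7 licensing and clamp genes lay left of 0 in the third, and no gene passed in any of the 3.

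Of 86 further cell cycle genes, 85 were tested and 1 passed in any comparison. Cdkn2d, the gene of the CDK4 and CDK6 inhibitor p19INK4d, was at 34.6 and 20.3 CPM in the Tyrobp single mutant and 16.1, 23.8 and 25.5 CPM in the compound mutant. It was at 15.2, 7.01 and 10.3 CPM in Inpp5d+/-;NLGF and 11.4, 12.4 and 16.6 CPM in NLGF. The Tyrobp average was a log2 fold change of 1.01 (SE 0.25, edgeR adjusted p = 0.0475). Its value was 0.22 with the neutrophil covariate (edgeR adjusted p = 0.949) and 0.76 without the 2 libraries richest in S100a8 (edgeR adjusted p = 0.335). The neuron covariate and the fit with no filter also ended the call, with edgeR adjusted p of 0.0727 and 0.0570. With 1 library left out the call held in 2 of 11 fits, those without replicate 1 of the compound mutant or replicate 1 of Inpp5d+/-;NLGF. In the other 9 the edgeR adjusted p was 0.221 and 0.0667 without replicates 1 and 2 of the Tyrobp single mutant, 0.0933 and 0.0910 without replicates 2 and 3 of the compound mutant, 0.0786 and 0.0970 without replicates 2 and 3 of Inpp5d+/-;NLGF, and 0.0962, 0.0964 and 0.0597 without replicates 1, 2 and 3 of NLGF.

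The further genes with the smallest p in each other comparison did not pass. In the Tyrobp single mutant against NLGF they were Cks2, a CDK1 subunit gene, at a log2 fold change of 1.15 (SE 0.30, edgeR adjusted p = 0.132), the replication initiation gene Mcm10 and Cdkn2d. Cks2 was at 22.2 and 16.9 CPM in the Tyrobp single mutant and 8.96, 7.61 and 9.79 CPM in NLGF. In the compound mutant they were Sgo1, Fen1 and Cdkn2d against Inpp5d+/-;NLGF, Fen1, Cks2 and Mcm10 against NLGF, and Ckap2l, E2f7 and E2f8 against the Tyrobp single mutant. Fen1, the flap endonuclease of lagging-strand synthesis, was at 21.9, 33.1 and 22.7 CPM in the compound mutant, against 14.4, 12.3 and 17.5 CPM in Inpp5d+/-;NLGF. They were Wee1, Sgo1 and Cdc45 in Inpp5d+/-;NLGF against NLGF, Wee1, E2f8 and Dut in the Inpp5d average, and E2f7, Ckap2l and Hells in the interaction. Wee1, whose kinase restrains CDK1, was at 0.940, 0.0804 and 0.893 CPM in Inpp5d+/-;NLGF and 9.17, 7.64 and 5.81 CPM in NLGF (log2 fold change -3.57, SE 0.88, edgeR adjusted p = 0.952). The median of the 85 genes was 0.09 in the Tyrobp average and -0.11 in the Inpp5d average.

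Counts of 15 members could hold reads of a gene that shares exon bases with them. The library kit does not mark strand. The genes that overlap Stmn1 and Top2a lie on the same strand as these members, as do Mir25 and Mir93 at Mcm7. Kif20a shares 1271 bases with Cdc23, Ccnd1 1100 with LTO1, Prc1 911 with Rccd1, Ube2c 592 with Tnnc2, Ccna2 510 with Exosc9, Ccnd3 361 with Bysl and Mcm7 321 with Ap4m1. Shorter overlaps involved abundant genes: Cdc20 shares 53 bases with Elovl1, at 6156 to 14565 counts, and Mcm7 64 with Cops6, at 3940 to 8645 counts. The antisense genes at Ccnd2 had at most 5 counts in any library, and Tnnc2 had at most 1. Pseudogenes with their own rows took 112 to 211 counts for Pcna, whose lowest count was 3633, and 0 to 101 counts for Ccnb2, whose lowest was 157, so Ccnb2 is the less certain.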

How the data were processed

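RNA from 11 libraries of sorted microglia was prepared with RNeasy Plus Micro and SMART-Seq v4 kits, per the labels' protocols. The submitters' processing notes name the aligner STAR (2.7.3a), the counter featureCounts (1.6.4) and, as genome builds, mm10 and GRCm38.p6. The values the authors deposited were whole-number read counts per gene, with no normalisation; no source used here gives the strand setting or the treatment of multiply mapped reads. Groups are the labelled genotypes, and replicate numbers follow sample order and pair nothing.

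Genes were kept with filterByExpr (minimum count 10, minimum total 15), scaled by TMM and fitted in 1 model over all 11 libraries by glmQLFit and glmQLFTest of edgeR 4.0.16 (R 4.3.3), with Benjamini-Hochberg adjustment over all 20390 genes and a threshold of 0.05. The SE of a fold change comes from the test statistic. Also tried were DESeq2 1.42.0, voom with quality weights in limma 3.58.1, upper-quartile or RLE scaling, a minimum count of 50 or no filter, fits on compared groups only, marker covariates (mean log2 CPM, prior count 2) and each library left out; the fit without the 2 libraries richest in S100a8 was added after seeing the data. The procedure was tested on simulated data. Similar mean CPM, in the comparison of variation, means within 0.25 on the log2 scale. Floors cover only counting error: without molecular identifiers, reads cannot be taken as independent molecules.

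The 40 members, the 86 further genes and the marker lists were chosen with earlier results of these data known. All 40 members, Tyrobp and Inpp5d were named by rule. From the further genes the rule took called genes or else the 3 with the smallest p, and from each marker list the 2 most abundant and Mpo, Elane, Prtn3, Ms4a3 and Fcnb; Gfi1 was chosen after its values were seen. Lists giving no result above had these sums in Tyrobp-/- and other libraries: erythroid 0.0478 to 0.832 and 0 to 1.00 CPM, border-associated macrophage 19.1 to 119.6 and 0.734 to 25.3 CPM, oligodendrocyte 67.2 to 98.7 and 62.7 to 107 CPM, astrocyte 225 to 272 and 168 to 262 CPM, endothelial 7.46 to 20.2 and 18.6 to 34.4 CPM.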

Additional observations from a re-analysis of the deposited data

Results flagged for a closer look

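Mcm3, an MCM helicase subunit gene, differed with the Inpp5d+/- allele in opposite directions by Tyrobp genotype. Every compound mutant library (47.0, 53.7 and 73.1 CPM) lay below both Tyrobp single mutant libraries (96.9 and 80.0 CPM), while every Inpp5d+/-;NLGF library (59.2, 86.9 and 62.2 CPM) lay above all NLGF libraries (54.7, 52.0 and 58.3 CPM). The interaction was -0.95 on the log2 scale (edgeR unadjusted p = 0.00954, adjusted p = 0.9999), so the difference between both effects did not pass. Such opposite, non-overlapping differences occurred in 132 of the 20390 genes tested (0.647%), and Mcm3 was 1 of them among the 40 members. Its interaction ran from -1.15 to -0.75 with 1 library left out and was -0.88 with the neutrophil covariate.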

How the results depend on the processing

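No paired analysis was possible because the titles of the groups share no replicate numbers. Of 165 counts of called members over all comparisons and settings, 152 kept within 1.5 times the reported one. DESeq2 gave 1 in the Tyrobp single mutant against NLGF, 1 in the compound mutant against Inpp5d+/-;NLGF, 1 against NLGF and 3 in the Tyrobp average. The Tyrobp average, 1 as reported, was 0 with the neutrophil covariate and 0 without the 2 libraries richest in S100a8, and ran from 0 to 1 with 1 library left out. Without replicate 1 of the Tyrobp single mutant, Prc1 rather than Ccnd2 was called, as lower in Tyrobp-/-. That fit left 1 Tyrobp single mutant library, with 0 CPM of Prc1. The compound mutant averaged 5.22 CPM of Prc1, above the 2.86 CPM of Inpp5d+/-;NLGF and the 3.37 CPM of NLGF. The direction thus came from that 1 library. Leaving out 1 library gave 0 in the other 7 comparisons. Among 473 values of single genes, 444 kept direction and side of the threshold, 5 newly passed, 23 no longer passed and 1 reversed: Ccnd3 in the Tyrobp average, -0.021 with the neutrophil covariate. Of 165 medians of the members, 160 moved by less than the spread between replicates, though with 1 library left out the sign turned in 7 of 8 comparisons, all but the compound mutant against NLGF. The interaction median, -0.29 as reported, was 0.10 without replicate 1 and -0.66 without replicate 2 of the Tyrobp single mutant, and 0.08 without the 2 libraries richest in S100a8. Low counts limit Ccnd2, Mki67, Plk1 and the other 8 members with 3 or fewer counts in a library, and 2 libraries limit the Tyrobp single mutant. What kept these counts low was not tested.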
